A study of Bos taurus with 13 samples.

Results

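Among the transcripts of bovine mesenchymal stem cells, 62 of 16595 deposited genes were lower than control after 6 h of heat, higher than control after 3 days of heat, and close to control when the 6 h of heat was followed by recovery. They were chosen by measured values. Each deposited value is a normalised read count, and differences were taken between group means of log2(value + 1). A gene was a member when its mean value over the 13 libraries was from 50 to under 20000, its difference at 6 h was at most -0.4, its difference at 3 days was at least 0.4, and its difference after recovery was under 0.5 in size. All 62 members passed the filter on low values that left 13684 genes for testing. The cells came from bovine umbilical cord, were kept in primary culture (passages 2 to 4) and stayed at 37 °C or were shifted to 40.5 °C a day after seeding. The groups, with the labels' names, were 6 h at 37 °C (ShortNT, 6 h control, n = 3), 6 h at 40.5 °C (ShortHS, 6 h heat, n = 3), 3 days at 37 °C (LongNT, 3-day control, n = 2), 3 days at 40.5 °C (LongHS, 3-day heat, n = 3), and 6 h at 40.5 °C then 66 h at 37 °C (ShortHS_Recovery, recovery, n = 2). The study set out to separate immediate from stable and delayed effects of heat.

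Cells that are heated above their normal temperature activate heat shock factor, which drives the genes of molecular chaperones, while transcription and translation of many other genes are reduced. When heat continues, part of that first programme subsides and the cells settle into another steady state. Mesenchymal stem cells are adherent stromal cells that can form bone, cartilage and fat, and they secrete matrix and signalling proteins. The deposited table lists genes by Ensembl identifier only, and the gene table used here matched 0 of the 62 identifiers. Names, functions, marker genes of cell types and promoter sequences of the members were therefore not analysed here, and the members are described by their values.

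Recovered reads ran from 14859428 to 39117065 per library. Replicate 3 stood apart from replicates 1 and 2 wherever it exists, which is in both 6 h groups and in 3-day heat; neither the 3-day control nor recovery has one. The labels do not say what a replicate number marks, nor whether replicates were separate animals, so spreads and p-values refer to these libraries and may be technical. The median size of this offset was larger in the members than over all tested genes. In the 6 h heat group, replicate 3 differed from the mean of replicates 1 and 2 by at least 0.4 on the log2 scale in 33 of 62 members, higher in 23 and lower in 10. In the 3-day heat group it differed by that much in 25, higher in 21 and lower in 4. The median size of this gap in the 6 h heat group was 0.42 for the members and 0.21 for all tested genes. It was 0.35 against 0.239 in the 6 h control and 0.243 against 0.185 in the 3-day heat group. The comparison was not matched for level, and the share of all tested genes past 0.4 is not given here. When the rule was applied to replicates 1 and 2 only, it found 63 genes, of which 42 were among the 62. The other 20 met the rule only with replicate 3 included. Because the 3-day control has no such library, heat and the offset of replicate 3 cannot be told apart within that replicate at 3 days. Differences within replicates 1 and 2 leave it out, and their medians over the members were 0.60 and 0.56 at 3 days.

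The combination was uncommon among the 11182 genes in the same range of mean values. Of these, 1833 (16.4%) were lower by at least 0.4 at 6 h and 2215 (19.8%) were higher by at least 0.4 at 3 days. Both held for 71 genes, 3.87% of those lower at 6 h and 3.21% of those higher at 3 days. The bound on recovery removed 9 of the 71, 7 of which were higher after recovery, and left the 62. With the same thresholds and the same bound, 812 genes were higher at both times, 831 were lower at both, and 46 were higher at 6 h and lower at 3 days. In the plot of the heat effects, the members thus fill a thinly populated corner.

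**Figure D1:**
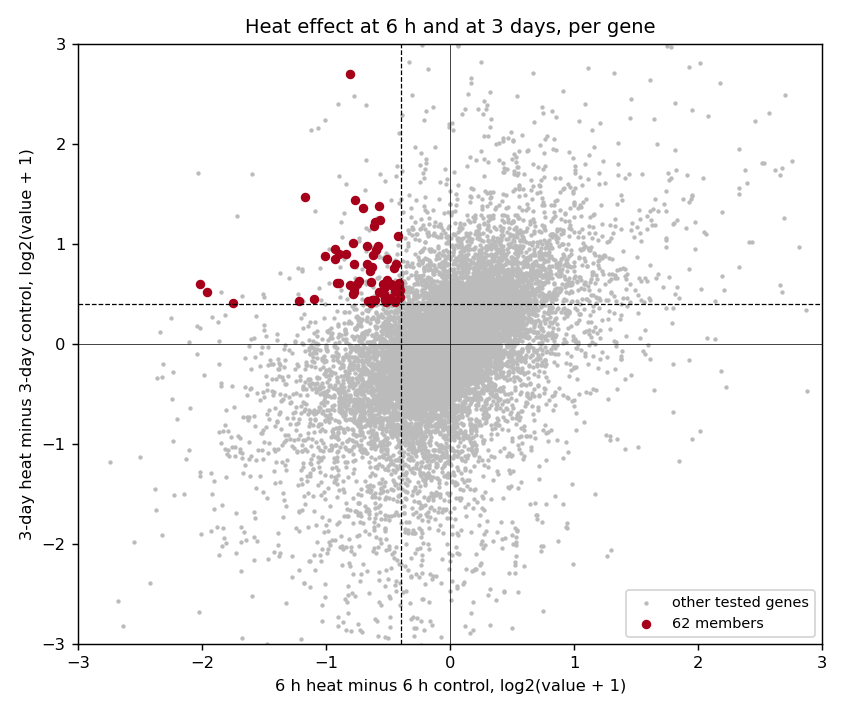
Each point is a gene, placed by its log2(value + 1) difference between heat and control at 6 h (horizontal axis) and at 3 days (vertical axis), with the thresholds of -0.4 and 0.4 dashed. The 62 members (red) lie in the upper left corner, where grey points failed the rule on mean value or recovery; 118 tested genes beyond 3 on either axis, none of them members, are not drawn.

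The fall at 6 h ran from -2.02 to -0.40 on the log2 scale, with a median of -0.63, and the rise at 3 days from 0.41 to 2.70, with a median of 0.61. Most members moved moderately: 7 fell by at least 1 at 6 h, and 10 rose by at least 1 at 3 days. The rise was the larger of the pair of changes in 34 members and the fall in the others. The members' mean values ran from 51.3 to 4776 with a median of 346, against a median of 672 for all genes in the range, and 15 lay under 100. In limma, 37 of 62 members passed an adjusted p of 0.05 as lower at 6 h, where 16.7% of all tested genes did, and 37 passed as higher at 3 days, where 20.1% did. Both were passed by 29 and neither by 17. These counts come from the fit without pairing. With the replicate number as a block, 55 passed as lower at 6 h and 47 as higher at 3 days. The share of all tested genes that passed in that fit is not given for these contrasts. For the change with time at 37 °C the block raised that share from 25.3% to 36.7%, so nothing is read from the larger counts. The libraries did not overlap in 38 members at 6 h (lower under heat; 22.2% of all tested genes) and in 55 at 3 days (higher under heat; 32.2%). The rule used these contrasts, so nothing is read from these counts against their background. The limma count at 3 days was lower when either 3-day control was left out, which leaves a single library in that group.

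Ordered by group mean, 6 h heat was the lowest of the 5 groups in 57 of 62 members and 3-day heat was the highest in 58. For 37 members every 3-day heat library lay above each of the 10 other libraries, and for 32 members every 6 h heat library lay below each of the 10 others. Over all tested genes these patterns held for 10.3% and 7.93%, but the rule chose the members for low 6 h heat and high 3-day heat, so nothing is read from the comparison. The exceptions were few. The 6 h control had the highest mean in 4 members, and the lowest mean was in the 3-day control in 2 members and in the recovery group in 3. As a share of all normalised values, the members took 0.134%, 0.139% and 0.191% in the 6 h control (replicates 1, 2 and 3) and 0.0840%, 0.0818% and 0.119% under 6 h heat. The share was 0.137% and 0.141% in the 3-day control, 0.144% and 0.143% in the recovery group, and 0.206%, 0.204% and 0.286% in the 3-day heat group. Replicate 3 was the highest library in each group that has one, and its share in the 6 h heat group was still below the controls.

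**Figure D2:**
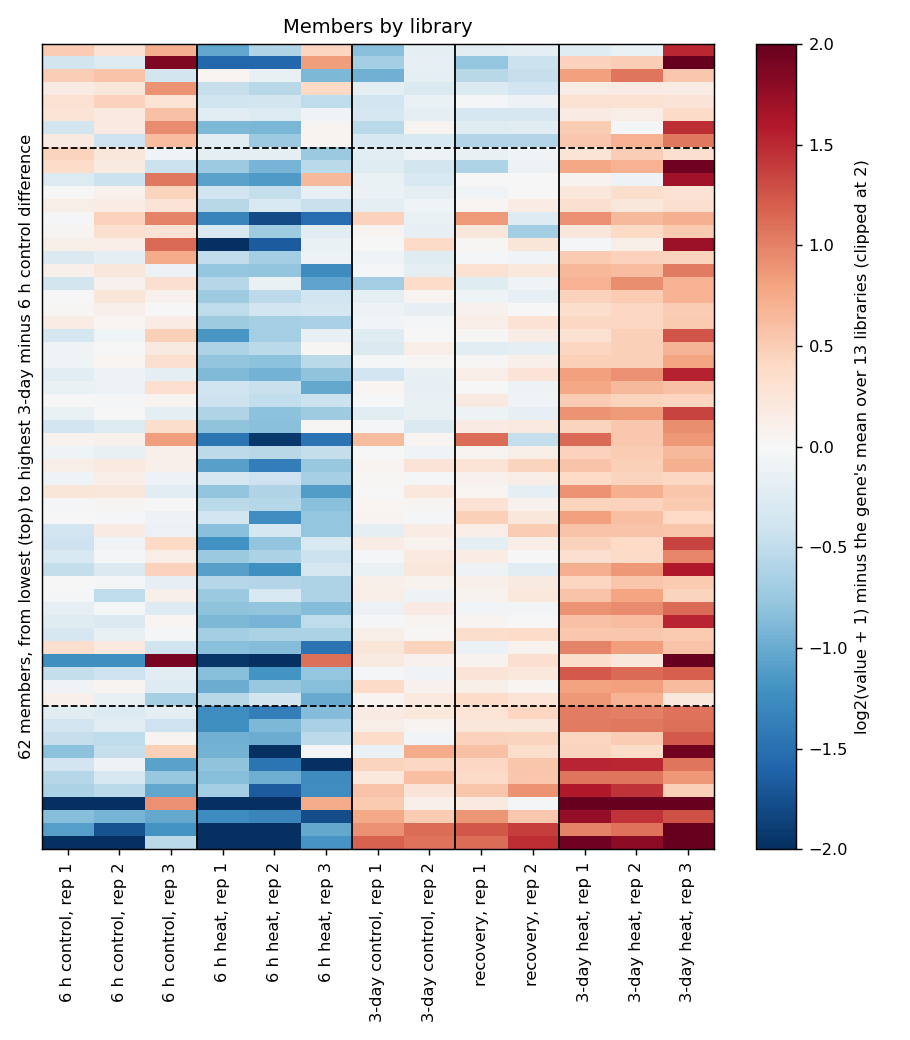
Rows are the 62 members and columns the 13 libraries; colour is log2(value + 1) minus the gene's mean over the libraries, clipped at 2 either way. Dashed lines separate the 8 members lowest and the 11 highest in the 3-day against the 6 h control. The 6 h heat columns are mostly blue and the 3-day heat columns mostly red, and replicate 3 departs from replicates 1 and 2 in several rows.

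The first member by the smaller of its changes, ENSBTAG00000011446, showed the pattern in replicates 1 and 2 and had a large offset of replicate 3. Its normalised value in the 6 h control was 131, 141 and 622 (replicates 1, 2 and 3), and under 6 h heat it was 56.5, 56.7 and 306. It was 106 and 151 in the 3-day control, 99.4 and 125 in the recovery group, and 235, 241 and 772 in the 3-day heat group. Both 3-day controls lay under all 3-day heat libraries, whereas the 6 h groups overlapped because replicate 3 of the heat group exceeded replicates 1 and 2 of the control. The log2 difference was -1.17 (SE 0.74) at 6 h and 1.47 (SE 0.82) at 3 days. Within replicates 1 and 2 these differences were -1.25 and 0.91, and with the replicate number as a block they were -1.17 and 0.77. This member passed limma's threshold in neither contrast without the block and in both with it.

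The second, ENSBTAG00000007917, combined the pattern with a higher level after 3 days in culture. Its values were 54.2, 66.2 and 33.2 in the 6 h control and 40.3, 25.2 and 16.0 in the 6 h heat group, so that 1 heated library lay above the lowest control. The 3-day control gave 97.2 and 94.9, recovery 94.8 and 106, and 3-day heat 208, 204 and 152, with no overlap between 3-day heat and either of the other 3-day groups. The log2 difference was -0.93 (SE 0.31) at 6 h and 0.95 (SE 0.35) at 3 days. The 3-day difference was 1.19 with the block, where it passed limma's threshold, which it did not without it.

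A further pair of members was singled out after the values had been seen, for the extremes of each change. ENSBTAG00000051191 had the deepest fall at 6 h. Its value was 373, 519 and 752 in the 6 h control and 151, 108 and 130 in the 6 h heat group, a log2 difference of -2.02 (SE 0.30). After 3 days it was 521 and 342 in the control, 684 and 317 after recovery, and 715, 591 and 615 under heat. All 3-day heat libraries were above both controls, but the recovery libraries straddled the control values and 1 of them reached the range of the heated ones. Its 3-day difference was 0.59 (SE 0.34). In limma it passed the threshold at 6 h (adjusted p 0.000487) but not at 3 days (adjusted p 0.179).

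ENSBTAG00000023600 had the largest rise at 3 days and few reads in most 6 h libraries. Its value was 4.21, 2.45 and 39.0 in the 6 h control and 0.672, 1.26 and 34.2 in the 6 h heat group, from 7, 3 and 34 reads and from 1, 1 and 30 reads. It was 29.5 and 21.8 in the 3-day control, 23.3 and 19.8 after recovery, and 115, 122 and 349 in the 3-day heat group. The 3-day heat libraries were all above the rest. At 6 h the heated library was below the control of its own number in all 3 replicates. The 6 h difference of -0.81 (SE 1.11) was smaller than the spread within groups, was -1.13 in replicates 1 and 2 only, and became 0.27 when replicate 3 of the 6 h control was left out and that of 6 h heat kept. Its 3-day difference was 2.70 (SE 1.24), and 1.70 with the replicate number as a block. Without the block it passed limma's threshold in neither contrast (adjusted p 0.631 at 6 h and 0.105 at 3 days). With the block it passed at 3 days only.

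**Figure D3:**
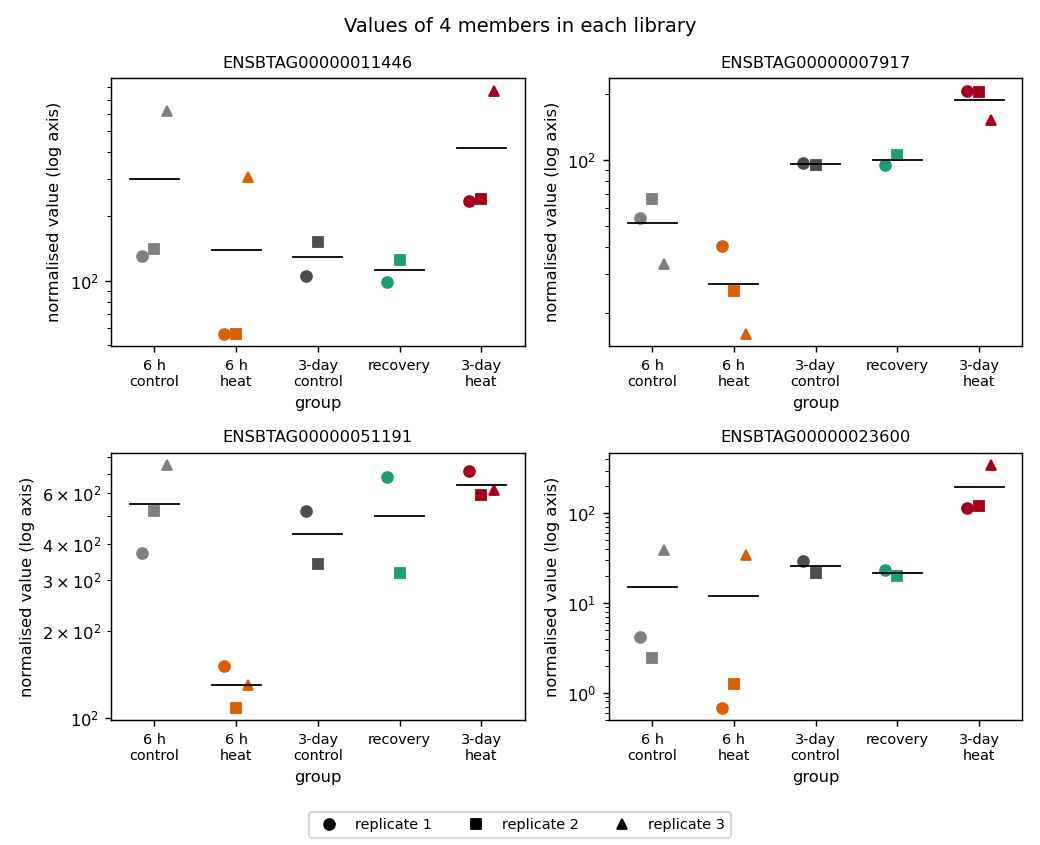
Normalised value (log axis) of 4 members in each library, by group; symbols mark the replicate number and bars the group mean. ENSBTAG00000011446 and ENSBTAG00000023600 show replicate 3 (triangles) above replicates 1 and 2 in each group that has one, while in ENSBTAG00000051191 the 3 libraries of 6 h heat lie together between 108 and 151.

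Several members showed the pattern with neither heated group overlapping any other group. In the member with the highest mean value, the 6 h control gave 4305, 4670 and 5721 and 6 h heat 2635, 2580 and 3124. The 3-day control gave 4424 and 4637, recovery 4630 and 4868, and 3-day heat 6315, 6311 and 7870. The heated groups of this member stand on either side of the other 3, which overlap. A member with a mean value of 477 was at 508, 471 and 509 in the 6 h control and 281, 290 and 293 in 6 h heat. It was at 441 and 451 in the 3-day control, 506 and 561 after recovery and 612, 616 and 663 in 3-day heat, and here both recovery libraries also lay above both 3-day controls. Another, with a mean value of 1604, was at 1293, 1421 and 1217 in the 6 h control and 830, 837 and 800 in 6 h heat. It was at 1336 and 1623 in the 3-day control, 1396 and 1393 after recovery, and 2718, 2808 and 3183 in 3-day heat. Neither heated group of this member overlapped any other group. A contrasting case was a member at 849, 849 and 7419 in the 6 h control and 514, 482 and 4267 in 6 h heat. After 3 days it was at 2251 and 2115 in the control, 2087 and 2476 after recovery and 2525, 2328 and 9226 under heat. Each heated library of this member at 6 h lay below the control of its own number, but 1 of its 3-day heat values lay within the range of the 3-day control and recovery libraries.

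The residual SD of log2 values within groups measures the spread between libraries. Its median over the members was 0.233, from 0.057 to 1.6, against 0.144 for all genes in the range of mean values and 0.31 for the 46 genes with the opposite pattern. It was 0.162 for the genes higher at both times and 0.189 for those lower at both. The members had lower mean values than the range (median 346 against 672), and the comparison was not matched for level.

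The rule set no value for the change with time at 37 °C, but both control groups enter it: a 6 h control that is high by chance, or a 3-day control that is low by chance, favours membership and lowers this difference. Over the members the difference of the 3-day from the 6 h control had a median of 0.004, with 31 above and 31 below 0, against a median of -0.01 over all tested genes. In limma, 10 of 62 members (16.1%) passed an adjusted p of 0.05, 7 higher and 3 lower after 3 days, against 25.3% of all tested genes (11.7% higher and 13.6% lower). The 3-day and 6 h controls did not overlap in 12 members that were higher (25.8% of all tested genes) and 9 that were lower (27.3%). The limma count was lower when either 3-day control was left out, which leaves a single library in that group. With the replicate number as a block, 20 members passed (32.3%), against 36.7% of all tested genes. In replicates 1 and 2 only, 24 passed (38.7%), against 43.5%. For comparison, the 46 genes with the opposite pattern had a median of 0.66 in this contrast, with 42 above 0; the choice of those genes favours a rise here in the same manner.

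By this difference the members fell into those higher by at least 0.4 with time (11), those lower by at least 0.4 (8) and those under 0.4 either way (43). In the 43, the median log2 level relative to the 6 h control was -0.64 in 6 h heat, -0.07 in the 3-day control, 0.05 after recovery and 0.64 in 3-day heat. The rule, together with the bound of 0.4 on the change with time, sets this order, so these levels describe the selection. In limma 30 of the 43 passed as lower at 6 h and 29 as higher at 3 days.

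In the 11, the median was -0.58 in 6 h heat, 0.96 in the 3-day control, 1.01 after recovery and 1.9 in 3-day heat. The rule itself makes heat lower than control at 6 h and the rise with time larger under heat. In limma 5 of the 11 passed as lower at 6 h and 4 as higher at 3 days. The member with the largest rise with time was at 33.1, 25.4 and 95.1 in the 6 h control and 21.5, 16.4 and 60.4 in 6 h heat, which overlapped. After 3 days it was at 316 and 295 in the control, 303 and 386 after recovery and 534, 481 and 1278 under heat. Its difference with time at 37 °C was 2.79 (SE 0.62, limma adjusted p 0.00856).

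In the 8 that were lower with time, the median was -0.71 in 6 h heat, -0.65 in the 3-day control, -0.70 after recovery and 0.17 in 3-day heat. For these members 6 h of heat and 3 days at 37 °C gave similar low levels, and 3-day heat lay near the 6 h control. The rule and the cut on the change with time set both low levels. The rule also sets 3-day heat above the 3-day control, so these levels describe the selection. One of them was at 439, 487 and 429 in the 6 h control, 267, 273 and 249 in 6 h heat, 270 and 323 in the 3-day control, 349 and 330 after recovery, and 439, 438 and 421 in 3-day heat. Its difference with time at 37 °C was -0.61 (SE 0.10, limma adjusted p 0.00251), and 3-day heat overlapped the 6 h control. Of the 8, 2 passed limma as lower with time, where 13.6% of all tested genes did. That contrast defined the 8, so nothing is read from the count. For 3-day heat against the 6 h control 0 passed, where 24.8% of all tested genes passed as higher. The differences there ran from -0.28 to 0.64. They include the change with time, which the cut made low, so nothing is read from that count either. The median of these 8 in replicate 3 was 0.35 in the 6 h control, -0.14 in 6 h heat and 0.62 in 3-day heat, each above replicates 1 and 2 of its group.

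**Figure D4:**
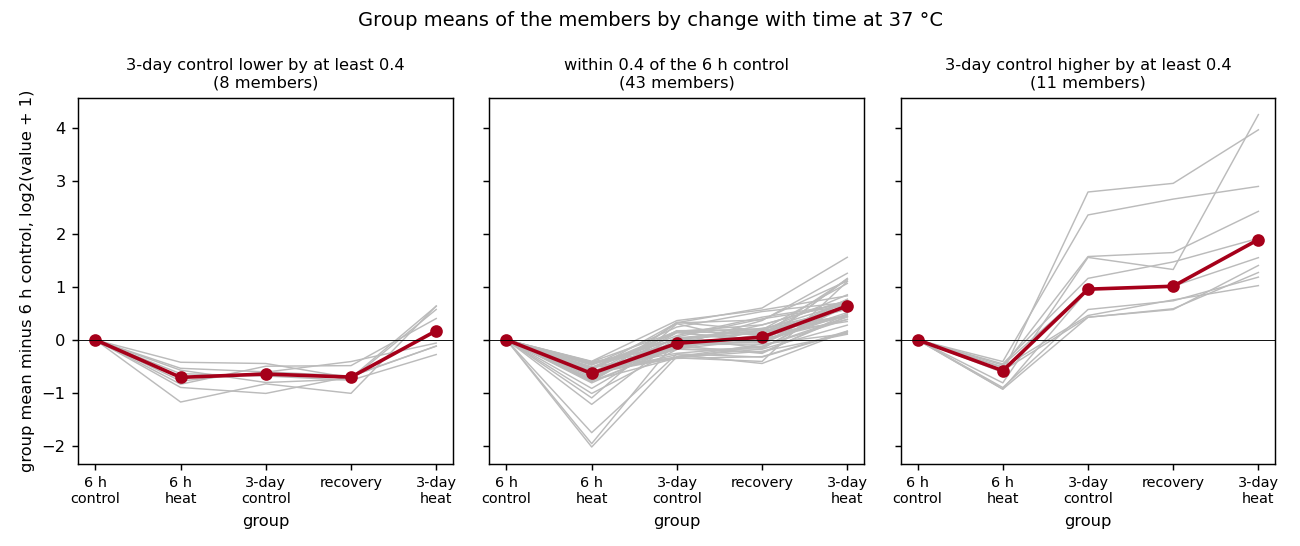
Group means of the members in log2(value + 1) relative to the 6 h control, in panels for the 8 members lower with time at 37 °C, the 43 with little change and the 11 higher; grey lines are members, the red line is the median, and lines join groups that are not a single time course. In each panel the median of recovery lies near that of the 3-day control and the median of 3-day heat is above both.

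The level reached under 3-day heat was also set against the 6 h control. It was higher in 58 of 62 members, with a median difference of 0.65, and 49 were higher by at least 0.4. In limma 40 members (64.5%) passed as higher, against 24.8% of all tested genes, and in 42 every 3-day heat library lay above every 6 h control (29.3%). This difference is the sum of the 3-day heat effect and the change with time. The rule set the heat effect at 0.4 or more, so nothing is read from these counts against their background. From 6 h heat to 3-day heat the median difference was 1.35, and 57 members passed as higher (background 21.8%). Since this last difference adds the rise, the size of the fall and the change with time, its direction was nearly fixed by the rule. The test of the 3-day effect against the 6 h effect, which the rule also fixed in sign, passed for 45 members (background for a higher 3-day effect 7.51%). That count was lower when either 3-day control was left out, which leaves a single library in the group.

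Recovery was bounded by the rule and lay close to the 3-day control. The difference ran from -0.37 to 0.46 with a median of 0.10, and 45 of 62 members were above 0. In limma 0 of 62 passed an adjusted p of 0.05 (background 0.797%), and 4 had an unadjusted p under 0.05, all higher after recovery, where 11.1% of all tested genes did. By edgeR 0 passed and 4 had an unadjusted p under 0.05, and by DESeq2 these counts were 0 and 3. The unadjusted share over all tested genes was 10.8% by edgeR and 10.4% by DESeq2. In replicates 1 and 2 only, 5 passed in limma (8.06%), against 13.1% of all tested genes in those libraries. Both recovery libraries lay above both 3-day controls in 23 members (24.1% of all tested genes) and below them in 2 (25.7%). Against 6 h heat, recovery was higher in 58 members with a median difference of 0.76, and 40 passed (background 24.9%). Against recovery, 3-day heat was higher in all 62 by a median of 0.55, and 29 passed (background 17.8%); the libraries did not overlap in 50 (33.0%). The count of 29 was lower when either recovery library was left out, which leaves a single library in that group. The share of all tested genes in such fits is not given here. These comparisons share the 3-day heat, 6 h heat or 3-day control libraries with the rule and are given as levels, not as separate evidence.

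By replicate number, heat was below control at 6 h in 62, 61 and 61 of 62 members in replicates 1 to 3, with medians of -0.62, -0.70 and -0.61. These are the libraries whose means the rule used, so the shared direction is nearly fixed. The difference was at most -0.4 in 48, 56 and 52 members. After 3 days, heat was above control in 61 and 58 members in replicates 1 and 2, with medians of 0.60 and 0.56, and by at least 0.4 in 50 and 47. Replicate 3 of 3-day heat, set against the mean of both 3-day controls, was higher in all 62 members with a median of 0.72. The same measure was 0.57 for replicate 1 and 0.57 for replicate 2.

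Membership near the thresholds turned on small differences. The 3 members nearest the 6 h threshold had differences of -0.404, -0.410 and -0.413, and the 3 genes that met every other criterion and lay nearest outside it had -0.399, -0.399 and -0.398. One of those outside rose by 1.45 at 3 days. At the 3-day threshold the nearest members had 0.406, 0.409 and 0.422 and the nearest genes outside 0.395, 0.394 and 0.393. Leaving out each library in turn gave from 54 to 87 genes by the rule, and 23 of the 62 members met it in all 13 cases. The 39 others were lost with at least 1 library left out.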

How the data were processed

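Polyadenylated RNA from 13 cultures was sequenced. The authors deposited 1 normalised signal value for each gene and library. The name of their table credits DESeq, and size factors recomputed from the recovered reads equalled those in the values. The submitters' processing notes name cutadapt, STAR, HTSeq and DESeq and the genome build ARS-UCD1.2; annotation and strand setting are not given in the sources used here. Low values were whole multiples of 1 read, and 100% of values in each library came out whole within 0.01 reads. Genes with a value of at least 10 in at least 2 libraries (13684) were fitted as log2(value + 1) with limma 3.58.1 in R 4.3.3, with 5 group means over all 13 libraries, a mean-variance trend and Benjamini-Hochberg adjustment over all tested genes. This log scale understates changes of low genes, and counting error adds to the spread of members with few reads. Recovered reads were tested with edgeR 4.0.16 and DESeq2 1.42.0 as alternatives, and the limma procedure was tested on simulated data.

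Groups came from sample titles, which give 66 h of recovery where the series text says 3 days. Same-numbered libraries deviated together between the groups of 3 (r from 0.27 to 0.72 over 9 pairs, those of the 6 h groups 0.50 to 0.72), which met the criterion of 0.1 for taking the numbers as paired. Replicate 1 correlated with replicate 2 of another group about as well (0.27 to 0.48 over 6 pairs), so the check sets replicate 3 apart but does not separate number 1 from number 2. Pairs with a group of 2 gave r from -0.05 to 0.13 and were not. The members, lists and alternatives were chosen with earlier results of these data known. Members were named by the smaller of their changes, first 2 only since no symbols matched; 2 more were named after seeing values. Values of further members were shown as examples without identifiers. Apart from those with the highest mean value and the largest rise with time, no rule for choosing them was stated. Lists of pathway genes and cell markers could not be applied without symbols, and no sequence was used.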

Additional observations from a re-analysis of the deposited data

How the results depend on the processing

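The rule gave from 47 to 89 genes over its 20 alternatives, the ends being a mean value from 100 and from 20, and the count stayed within 1.5 times the 62 in each; 22 members met it under all alternatives that kept the level bounds. At 6 h, 56 members passed with a term for replicate 3 (added after seeing the data) and 55 with the replicate block. The share of all tested genes in these 6 h fits is not given here. For the change with time at 37 °C, where the numbers did not pair the libraries, 20 passed with the replicate block, 21 with a term for replicate 3 (33.9%, against 36.6% of all tested genes) and 24 in replicates 1 and 2 only. The block moved no other member count by over 1.5 times. After recovery 5 passed in replicates 1 and 2 only. With single libraries left out, the counts ran from 22 to 40 for 3-day heat, from 4 to 12 for time at 37 °C, from 13 to 35 for 3-day heat against recovery, and from 29 to 53 for the difference of the heat effects. The 6 h difference of ENSBTAG00000023600 ran from -2.20 to 0.27 with single libraries left out, its sign turning without replicate 3 of the 6 h control; the cause was not tested. Other scalings shifted the median of all tested genes by less than 0.1. The groups of 2 limit the 3-day and recovery contrasts, and low reads limit members near a mean value of 50. The comparison of promoter windows was not run.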
